A study of Ovis aries with 42 samples.

Results

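The hypothalamus of ewes in the follicular phase was compared with that of ewes in anestrus. The comparison rests on 14 of the 42 RNA sequencing libraries of the series, taken by the tissue and phase that the labels give: 7 follicular hypothalamus libraries, numbered 8 to 14, and 7 anestrous hypothalamus libraries, numbered 15 to 21. All came from adult female Rasa Aragonesa sheep, with no treatment, age or genotype label, so the phase is the difference that the labels give between the groups. Another 7 hypothalamus libraries from the luteal phase entered the fit to estimate the spread, and the remaining 21 are from the pars tuberalis of the pituitary.

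The hypothalamus controls the ovarian cycle through neurons that release gonadotropin-releasing hormone (GnRH) in pulses to the pituitary. In the follicular phase of the cycle, rising estradiol from the growing follicle leads to a surge of GnRH and luteinizing hormone and then to ovulation. In seasonal anestrus, long days read through melatonin keep GnRH pulses rare, partly through a stronger negative feedback of estradiol, and ewes do not ovulate. The deposited table names its features by Ensembl sheep gene ID alone, and the reference gene table paired 0 of the 27054 IDs with a symbol. GnRH, kisspeptin, thyroid hormone, clock and cell marker genes were therefore not analysed here, and the tissue label could not be checked against markers. Features are described by ID, level and behaviour across libraries. In tissue RNA, fewer cells of a type and less RNA per cell cannot be told apart. Nothing in the labels ties a library to a ewe, so p-values measure the spread between these samples, which may be technical.

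Anestrous library 15 stood apart from its group, and results that rest on it are given with and without it. It was kept under the label it carries, and whether that label is right was not tested. It had the most counts of the 14 libraries, 33586399, where the other 13 held from 21483731 to 30855105. It had the most features with at least 1 count, 19631, against 17583 to 18389 in the other anestrous and 17837 to 18894 in the follicular libraries. Its 10 largest features took 14.8% of its counts (95% Wilson interval 14.7 to 14.8%, for counting error only), the lowest share of the 14. In the other anestrous libraries that share ran from 24.9 to 40.8%, with a median of 35.9%, and in the follicular libraries from 22.9 to 38.5%, with a median of 27.03%. The groups overlapped in this share.

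Library 15 also resembled the follicular libraries more than its own group. Across the 16350 tested features, in log2 (CPM + 0.5), where CPM are counts scaled to the size of the library, its median correlation was 0.894 with the other 6 anestrous libraries and 0.940 with the 7 follicular ones. Features of 1 library share its depth and composition and are not independent replicates. Anestrous libraries 18, 20 and 21 also had a higher median correlation with the follicular libraries (0.962, 0.947 and 0.961) than with their own group (0.943, 0.930 and 0.952). Follicular library 11 was as close to the anestrous libraries as to its own group, with medians of 0.930 to both. The other 6 follicular libraries were closer to their own group.

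**Figure D1:**
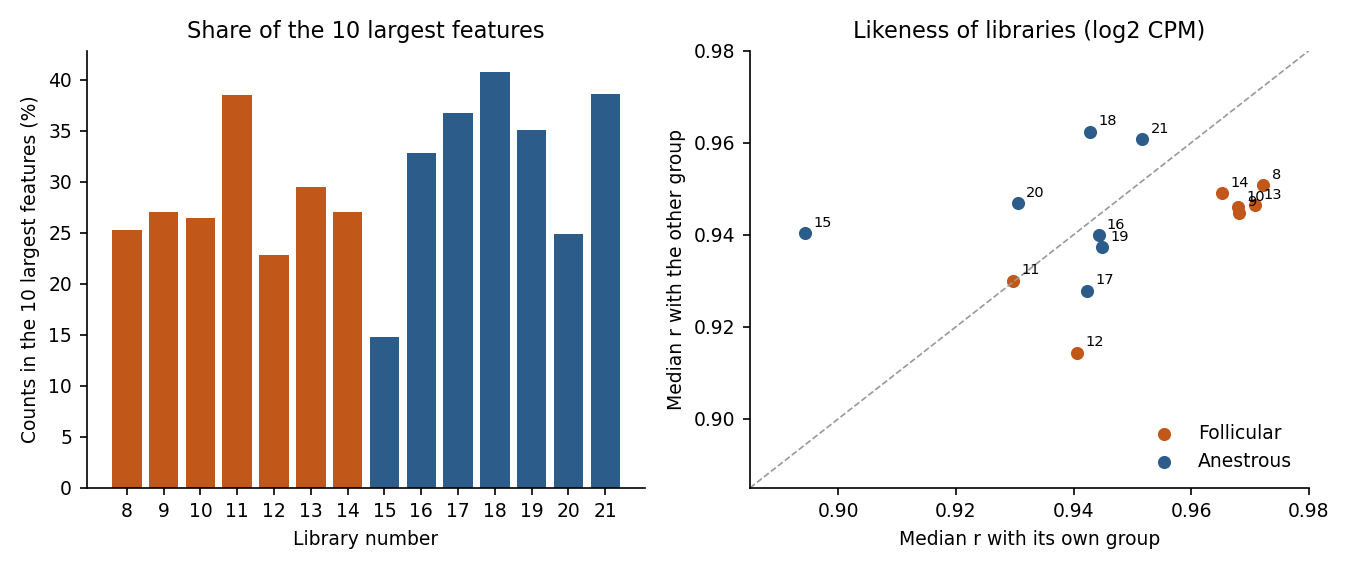
Left, the percentage of counts in the 10 largest features of each of the 14 libraries (follicular 8 to 14 in orange, anestrous 15 to 21 in blue). Right, the median correlation of each library (numbered) with the other libraries of its group (x axis) and with the libraries of the other phase (y axis), with the line of equality dashed. Library 15 has the lowest share, 14.8%, and the lowest correlation with its own group, 0.894.

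Standing at the edge of a group was not particular to library 15. It held the highest or lowest anestrous value in 54.6% of the features, where equal shares among 7 libraries would give 28.6%. Follicular library 12 held such an extreme in 55.1% of the features within its group, and library 11 in 51.4%. The anestrous group was the more variable of both phases. The median over features of the standard deviation (SD) of log2 (CPM + 0.5) was 0.47 in the anestrous, 0.34 in the follicular and 0.39 in the luteal libraries. Without library 15 the anestrous median was 0.39, and without any other single anestrous library it stayed between 0.46 and 0.49.

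With all libraries, the first question, which features differ between the follicular and the anestrous hypothalamus, had no answer past the threshold. EdgeR's quasi-likelihood test called 0 of 16350 features (0%) at an adjusted p under 0.05, with a lowest adjusted p of 0.328. At an unadjusted p under 0.05 there were 1688 features (10.3%), 686 with a higher (4.2%) and 1002 with a lower (6.13%) follicular value. On the same libraries DESeq2 called 68 features (0.416%), 13 higher (0.0795%) and 55 lower (0.336%). Limma-voom, which weights each library by how well it follows its group, called 1549 (9.47%), 579 higher (3.54%) and 970 lower (5.93%). It gave library 15 a weight of 0.147, the lowest of the 21 hypothalamus libraries. The next lowest, for anestrous library 20, was 0.389. The precision of the edgeR fit was a median standard error of 0.25 on the log2 scale.

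In the fit of the 20 libraries other than 15, 890 of 16419 features (5.42%) passed by edgeR. In the follicular hypothalamus 407 rose (2.48%) and 483 fell (2.94%). The split between directions moved with the fit. It was 370 higher and 621 lower with RLE scaling, 387 and 635 with only the compared phases, and 807 and 1224 with DESeq2. At an unadjusted p under 0.05 there were 3960 (24.1%), 1973 with a higher (12%) and 1987 with a lower value (12.1%). Most of these differences were modest. Among the 407 higher features the median log2 fold change was 0.78, and among the 483 lower ones it was -0.64. A fitted difference of over 2-fold was reached by 95 higher and 97 lower features. Past 4-fold there were 4 higher and 44 lower features. Of these, 0 of the higher and 38 of the lower ones had counts in all 14 libraries, a condition that a feature without a count in any 1 library cannot meet. The 38 decreases were uneven among the anestrous libraries. Over these 38 features the median SD of log2 (CPM + 0.5) was 1.79 in the 6 anestrous and 0.52 in the 7 follicular libraries. In 1 of the 38 all 6 anestrous libraries lay above every follicular one, and in 29 at most 4 of the 6 did.

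**Figure D2:**
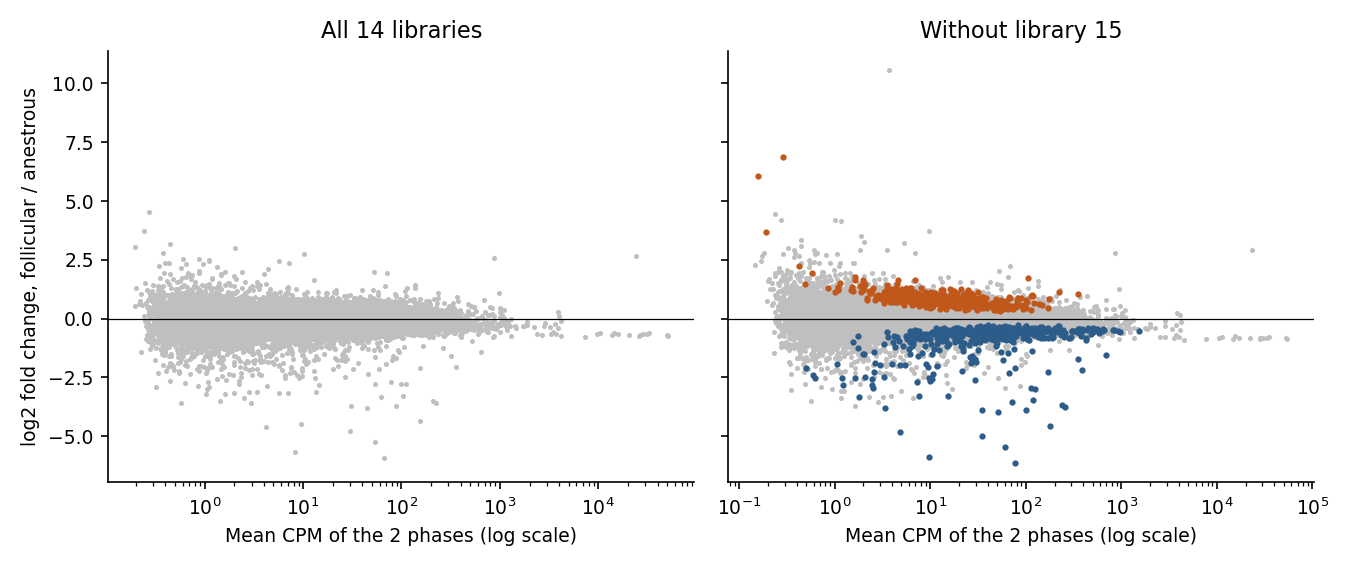
Log2 fold change of follicular over anestrous hypothalamus (y axis) against the mean CPM of both phases (x axis, log scale) for each tested feature, with all 14 libraries (left) and without library 15 (right). Features at an edgeR adjusted p under 0.05 are orange where higher and blue where lower in the follicular phase. There are 0 on the left and 890 on the right, where the called features with the largest fitted increases have a low mean CPM.

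The direction of the called features changed with their level. The tested features were split into 4 level classes of equal size by mean CPM. Class 1, the lowest (0.232 to 3.26 CPM) held 39 higher and 27 lower calls. Class 2 (3.26 to 11.8 CPM) held 132 higher and 70 lower calls, and class 3 (11.8 to 34.6 CPM) held 154 and 129. In class 4, above 34.7 CPM, the balance turned, with 82 higher and 257 lower calls. The share of called features rose with level, from 1.61% to 4.94%, 6.92% and 8.29%, while the median standard error fell from 0.49 in class 1 to 0.17 in class 4. With all libraries, features at an unadjusted p under 0.05 leaned the same way in class 4 (176 higher, 371 lower). In classes 1 to 3 they leaned to lower values as well, with 86 against 161, 196 against 219 and 228 against 251, where the calls without library 15 leaned to higher values.

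**Figure D3:**
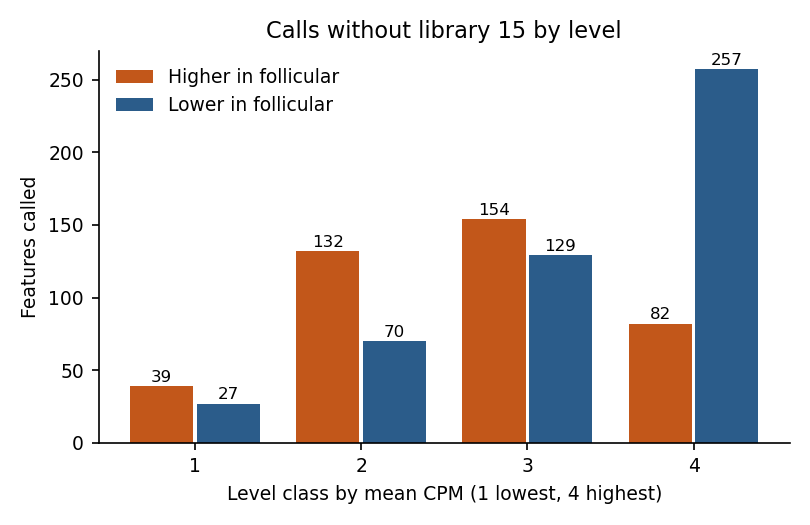
Number of features called without library 15 (y axis) in 4 level classes of equal size by mean CPM (x axis, lowest to highest), higher in the follicular phase in orange and lower in blue. Higher calls outnumber lower ones in classes 1 to 3, and lower calls outnumber higher ones 257 to 82 in class 4.

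With library 15 out, 3 measures of the libraries differed between the phases. Library 15 was an extreme of the anestrous group in each of them. The p-values without it therefore depend on leaving out a library that stood apart on these same measures. The 10 largest features took 28.1 ± 5.02% of the counts in the follicular libraries (SD, n = 7) and 34.8 ± 5.58% in the 6 anestrous ones (two-sided exact permutation p = 0.0466, adjusted p = 0.0466 over 3 measures). Features detected numbered 18516 ± 337 against 17939 ± 288 (exact permutation p = 0.0117, adjusted p = 0.0350), and total counts were 26188100 ± 3161020 against 23006800 ± 1353660 (exact permutation p = 0.0420, adjusted p = 0.0466). With library 15 the anestrous share was 31.97 ± 9.14% (SD, n = 7), and none of the 3 measures differed beyond the spread (exact permutation p from 0.277 to 0.420, adjusted p = 0.420 for each). When this share entered the fit without library 15 as a covariate, edgeR called 281 features, with more higher (155) than lower ones (126), and 207 of them were among the 890. The part of total counts and of detected features in the calls was not tested.

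The largest features themselves leaned to the anestrous side. Of the 20 features with the largest mean share of hypothalamus counts (3908 to 50631 CPM), 17 had a lower follicular value in the fit of all libraries, with a median log2 fold change of -0.67 over the 20, and 0 passed the adjusted threshold (edgeR; 3 at an unadjusted p under 0.05, beside 10.3% of all tested features). Without library 15 the same number, 17, had a lower value, with a median of -0.82. Of the 20, 16 then lay at an unadjusted p under 0.05, beside 24.1% of all tested features, and 0 passed (edgeR lowest adjusted p = 0.0565). These features are parts of the same library totals and are not independent of each other. The exception with the largest positive fold change took 0.0867 to 18.6% of the counts in the follicular libraries, with a median of 1.74%, and 0.0333 to 1.91% in the anestrous ones. These ranges overlapped. Without these 20 features edgeR called 0 features with all libraries and 935 without library 15, of which 873 were among the 890.

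Values by library are given for 4 features. They had, 2 in each direction, the lowest edgeR p with all libraries among well detected features, and they also passed without library 15. Their values chose them, so these are given as a description. The 2 lower ones differ more than most of the 483 lower features, whose median log2 fold change was -0.64 and whose median SD of log2 (CPM + 0.5) was 0.30 in the 6 anestrous and 0.22 in the follicular libraries. ENSOARG00000008414 was a steady, abundant feature with a higher follicular level, read from 1170 to 7125 counts in each library. It ranged from 122.6 to 219 CPM in the 7 follicular libraries, with a median of 139.6. In the anestrous libraries it ranged from 59.6 to 139.8 CPM, with a median of 82.5. The highest anestrous value was that of library 15, and the next was 109.8 CPM in library 18, below all follicular libraries. The means were 155 ± 33.3 and 90.3 ± 28.3 CPM (SD, n = 7 each), a difference of 0.78 ± 0.181 (SE) on the log2 scale (edgeR adjusted p = 0.328). Without library 15 the anestrous mean was 82.0 ± 19.7 CPM (SD, n = 6) and the log2 fold change was 0.94 ± 0.170 (SE, edgeR adjusted p = 0.0197).

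ENSOARG00000010515 behaved like it at a somewhat lower level. Its follicular values ran from 75.8 to 129.7 CPM with a median of 92.6, and its anestrous values from 47.6 to 78.8 CPM with a median of 61.2. Follicular library 8 was the only one of the 7 that did not exceed every anestrous library, and library 15 again held the anestrous maximum. The log2 fold change was 0.59 ± 0.141 (SE, edgeR adjusted p = 0.328) with all libraries and 0.67 ± 0.146 (SE, edgeR adjusted p = 0.0261) without library 15, when all 7 follicular libraries lay above all 6 anestrous ones.

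ENSOARG00000020201 was low in the follicular phase, and higher and more uneven in anestrus. It lay between 4.62 and 11.6 CPM in the follicular libraries, with a median of 6.69, and between 10.7 and 70.5 CPM in the anestrous ones, with a median of 18.2. Libraries 16, 17 and 19 carried the high anestrous values (39.9, 59.9 and 70.5 CPM), while library 21 lay inside the follicular range and library 20 just above it. Library 15, at 18.03 CPM, was not out of line here. The log2 fold change was -2.15 ± 0.406 (SE, edgeR adjusted p = 0.328), and -2.23 ± 0.411 (SE, edgeR adjusted p = 0.0201) without library 15.

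ENSOARG00000014240 followed the same pattern at the lowest level of the 4, on 49 to 940 counts in each library. Its follicular values ran from 1.96 to 6.62 CPM, with a median of 2.75, and its anestrous values from 4.49 to 29.4 CPM, with a median of 11.2. Libraries 16 and 17 were highest (27.7 and 29.4 CPM), library 21 lay inside the follicular range, and library 15, at 18.4 CPM, was the third highest. The log2 fold change was -2.11 ± 0.420 (SE, edgeR adjusted p = 0.328), and leaving library 15 out brought it slightly nearer to 0, at -2.04 ± 0.434 (SE), while the edgeR adjusted p was 0.0224. An adjusted p depends on all features tested, and this feature passed without library 15 with a smaller difference than with it.

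In the luteal hypothalamus, which was not part of the comparison, the 4 features lay between the other phases in mean. ENSOARG00000008414 ranged from 92.1 to 167 CPM with a median of 132.5, and ENSOARG00000010515 from 59.7 to 102.5 CPM with a median of 82.5. ENSOARG00000020201 ranged from 7.80 to 24.4 CPM with a median of 10.9, and ENSOARG00000014240 from 2.52 to 13.2 CPM with a median of 7.07. Each luteal range overlapped both the follicular and the anestrous range, and no test of the luteal values was made.

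**Figure D4:**
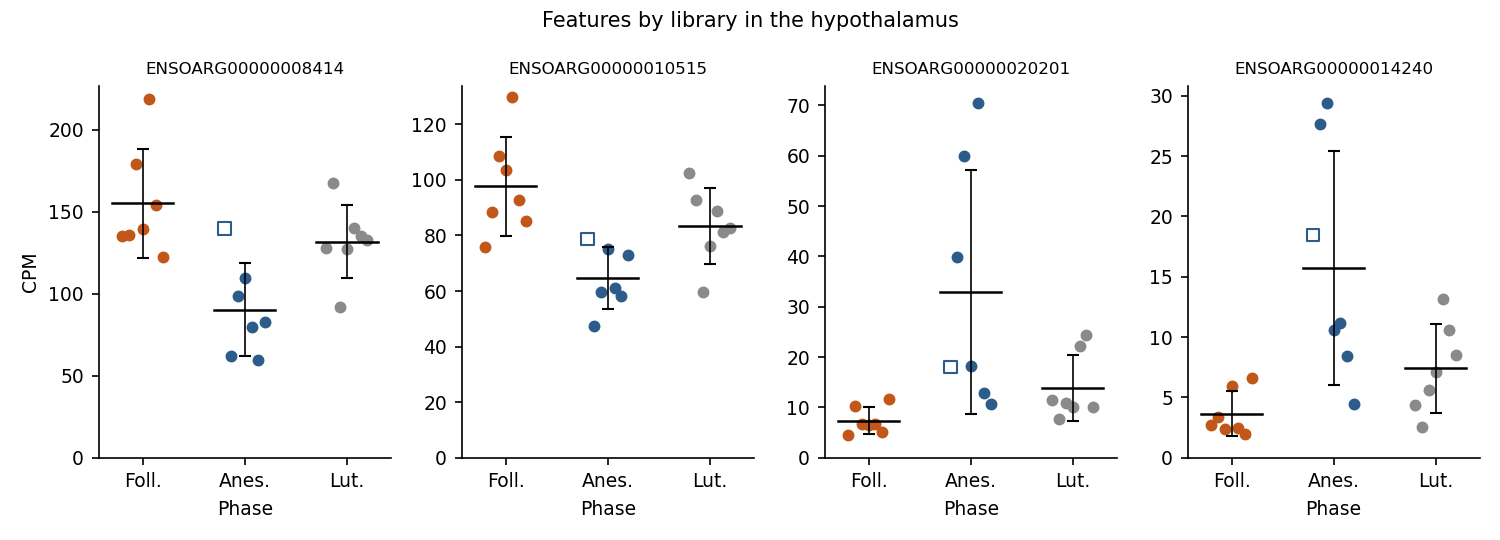
CPM (y axis, from 0) of 4 features in each hypothalamus library by phase (x axis: follicular, anestrous, luteal), with the mean as a bar and error bars of 1 SD (n = 7 for each phase). The open square is anestrous library 15, which holds the highest anestrous value of ENSOARG00000008414 (139.8 CPM) and ENSOARG00000010515 (78.8 CPM) and lies within the anestrous values of the other 2.

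Few features kept the phases fully apart when every library was counted. The 7 follicular libraries lay entirely above or below the 7 anestrous ones in 20 of 16350 features (0.122%), 11 higher and 9 lower. Of the 20, 10 were among the 890 called without library 15. Against the 6 other anestrous libraries the count was 497 (3.04%), 256 higher and 241 lower. Of these, 346 were among the 890, where the share of features called in that fit was 5.42%. Separation and calls come from the same libraries, so this overlap is not separate support. For 861 of the 890 (96.7%) library 15 lay on the follicular side of the midpoint between the mean of the follicular libraries and that of the other anestrous libraries. For 765 it lay at or past the follicular mean. Over all 16349 features tested in both fits, called or not, it lay on the follicular side in 72.9%. With library 15 out, each further library was placed likewise among the features called without it. Anestrous library 20 lay on its own side in 40.1% of them, the lowest share, and follicular library 10 in 97.0%, the highest. The share was 54.8% for anestrous library 18 and 59.0% for follicular library 11. The 890 were chosen in libraries that leave 15 out, and 887 of them had the same direction with it, 622 at an unadjusted p under 0.05. Over all 16349 features tested in both fits these counts were 14816 and 1688. The fit with library 15 also holds every library in which the 890 were chosen, so the kept directions are not separate support.

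The calls also depended on other single libraries. With all 21 hypothalamus libraries as the starting point, leaving out any of the 13 compared libraries other than 15 gave 0 calls with edgeR, with 1054 to 1825 features at an unadjusted p under 0.05. With library 15 already out, leaving out a further library gave from 29 calls (without anestrous library 16) to 1314 (without anestrous library 20). The count was 67 without follicular library 10, 205 without 9, 206 without 12, 303 without 13, 477 without 8, 508 without 14 and 929 without 11. For the anestrous libraries it was 225 without 17, 240 without 21, 699 without 19 and 863 without 18. Higher calls outnumbered lower ones without library 8 (254 to 223), 9 (107 to 98), 10 (34 to 33), 14 (258 to 250) and 17 (119 to 106), and lower calls were the more numerous without each of the other 8. Each of these fits has 1 library fewer than the fit with 890 calls.

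**Figure D5:**
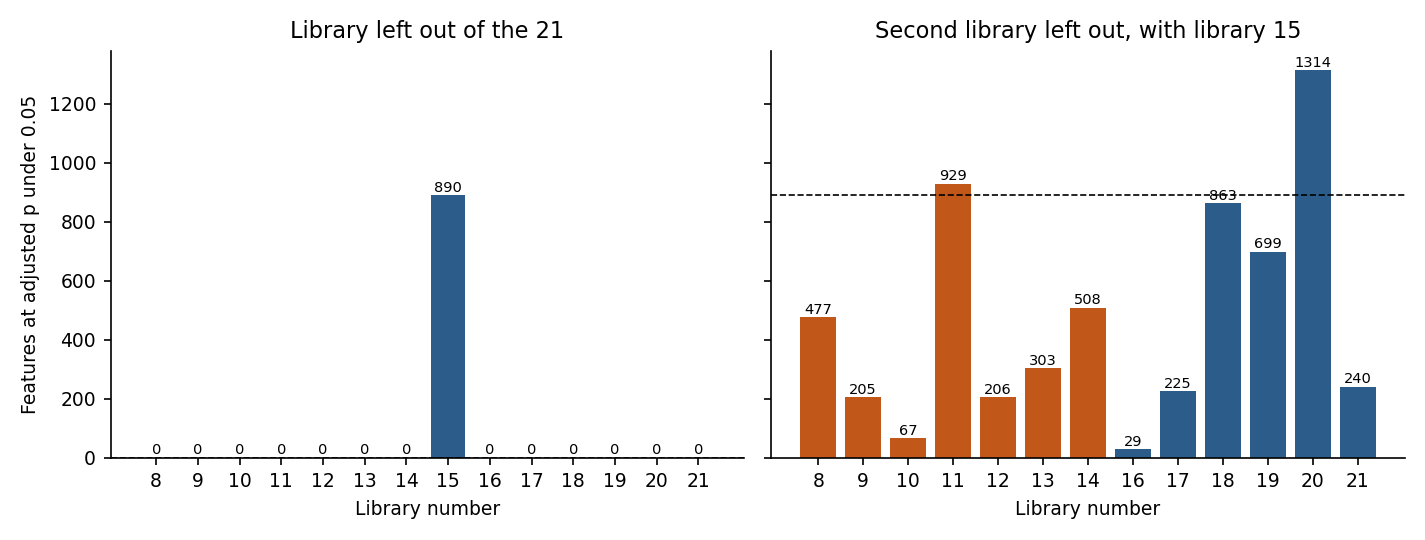
Number of features at an edgeR adjusted p under 0.05 (y axis) after leaving out 1 compared library (x axis; follicular orange, anestrous blue) from all 21 hypothalamus libraries (left), and from the 20 that remain without library 15 (right). Dashed lines mark the count with no further library left out, 0 and 890. On the left only library 15 gives calls, and on the right the count runs from 29 to 1314.

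A core of 29 features, 12 higher and 17 lower, was called in all 13 of these fits. They are the 29 calls of the fit without anestrous library 16, the shortest list, which sets the core alone. The 13 fits share most of their libraries and are not independent of each other. Of the 890, 151 were called in at least 10 of them. The 12 higher features had a median log2 fold change of 1.02 and the 17 lower ones of -0.78 without library 15, and with it the medians were 0.60 and -0.65. All 29 had counts in all 14 libraries, kept their direction with library 15, and passed without library 15 when the share of the 10 largest features was a covariate. Limma-voom with all libraries called all 29, and DESeq2 with all libraries called 7 of them. The 29 were chosen in fits of these same libraries, so these traits and calls are a description and not independent support. Library 15 lay on the follicular side of the midpoint for 28 of the 29. ENSOARG00000008414 and ENSOARG00000020201 belonged to this core, while ENSOARG00000010515 and ENSOARG00000014240 were called in 11 of the 13 fits.

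The tools overlapped unevenly. Of the 68 features that DESeq2 called with all libraries, 67 were among the 890, which is 98.5% of the DESeq2 list and 7.53% of the 890. Of the 1549 that limma-voom called with all libraries, 702 were among the 890, or 45.3% of the first list and 78.9% of the second. A set of 43 features, 13 higher and 30 lower, was common to all 3 lists. These lists rest on the same libraries and are not independent of each other. The median log2 fold change with all libraries was 0.59 for the 13 higher and -1.49 for the 30 lower features of that set, and the 4 features named above were called by both tools (DESeq2 adjusted p from 0.000336 to 0.0258, limma-voom adjusted p from 0.0101 to 0.0206).

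The pars tuberalis offered the same phases in a neighbouring tissue, from libraries of its own. Whether both tissues came from the same ewes is not given by the labels. The same direction in both tissues can therefore not be read as independent. Of the 407 features higher without library 15, 404 were tested there, and 306 (75.7%) also had a higher follicular than anestrous value. Of the 483 lower features 480 were tested, and 285 (59.4%) also had a lower value. Over all 15567 features tested in both tissues, 56.7% had the same direction. The sizes in the pars tuberalis were small, with a median log2 fold change of 0.12 for the higher and -0.04 for the lower features. Only 32 and 29 of them lay there at an unadjusted p under 0.05, in either direction. These shares were 7.92% and 6.04%, against 6.47% of all features tested in both tissues. Of the 32 higher features 28 had the same direction as in the hypothalamus, and of the 29 lower features 14 did. Over all features tested in both tissues it was 588 of 1007. EdgeR called 0 of 16301 pars tuberalis features.

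The difference between the tissues was tested directly for the 4 named features in a fit of all 42 libraries. It treated all libraries as independent, since no ewe is named. For ENSOARG00000014240 the log2 fold change was -0.07 ± 0.236 (SE) in the pars tuberalis, and the hypothalamus minus pars tuberalis difference was -2.04 ± 0.485 (SE, edgeR adjusted p = 0.144). For ENSOARG00000020201 the pars tuberalis value was -0.14 ± 0.280 and the difference -2.001 ± 0.502 (SE, edgeR adjusted p = 0.186). The difference was 0.69 ± 0.203 (SE, edgeR adjusted p = 0.367) for ENSOARG00000010515 and 0.57 ± 0.262 (SE, edgeR adjusted p = 0.713) for ENSOARG00000008414. None of the 4 passed, with or without library 15 (edgeR adjusted p from 0.0540 to 0.166 without it).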

How the data were processed

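Per the labels' protocols, tissue was frozen in liquid nitrogen and RNA with an integrity number over 7 was sequenced on an Illumina Hi-Seq. The authors deposited raw counts for 27054 Ensembl sheep IDs in 42 libraries. HISAT2 2.1.0, StringTie 1.3.5, Trimmomatic 0.38, SAMtools 1.7, FastQC 0.11.5, R 3.5.1 and DESeq2 are listed, with no role, per the submitters' processing notes. Genome build, annotation and strand setting were not given in the sources used here. Counts of overlapping or near-identical genes are therefore uncertain. Columns were matched to samples by library number, tissue and phase, with 0 columns of no sample. Hypothalamus libraries held 18511124 to 37726207 counts.

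Tests used edgeR 4.0.16 in R 4.3.3: TMM scaling, filterByExpr with a minimum count of 10, robust quasi-likelihood fit of the 3 phases, two-sided, Benjamini-Hochberg adjustment over all tested features, threshold 0.05. CPM are counts scaled to the TMM library sizes of the 21-library fit (for the pars tuberalis, of its own fit), and log2 CPM use a pseudocount of 0.5. The standard errors (SE) given for edgeR were derived from its test. Each is the absolute log2 fold change divided by the square root of the F statistic. Library measures were compared by exact permutation tests (SciPy 1.17.1). Alternatives were DESeq2 1.42.0, limma-voom with sample weights (limma 3.58.1), RLE scaling, other filters, only the compared phases, surrogate variables (sva 3.50.0), a covariate for the 10 largest features, leaving out the 20 largest, and leaving out libraries.

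The comparison, lists, rules and alternatives were chosen with earlier results of these data known, including that library 15 stands apart. Named features were the 2 in each direction with the lowest p with all 21 libraries, and the 2 with the lowest such p among features that pass without library 15, given a mean of at least 1 CPM and counts in all 14 libraries. Both parts of the rule gave the same 4. The reference table (35057 genes) matched 0 IDs, so the 24 gene lists prepared by symbol, cell type markers among them, were not used here.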

Additional observations from a re-analysis of the deposited data

Results flagged for a closer look

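In 16 sets of 7 library values (3 library measures, the correlation with the own group, and the 4 named features, in each phase), a library was marked where its gap to the next value took up most of the range of its group. Chance marks about 1 in 20 independent sets. The 4 marks found cannot be read against that, since 3 are of library 15, which was known to stand apart, on related measures. Library 15 had the highest total of the anestrous libraries, 33586399 counts. It also had the most features detected, 19631, and the lowest median correlation with its group, 0.894. In the follicular group, library 11 had the highest share of counts in the 10 largest features, 38.5%, and a single feature took 18.6% of its counts. None of the 4 named features was marked in either phase.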

How the results depend on the processing

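With all libraries, the count of calls was 0 in the edgeR fit and stayed at 0 with RLE scaling, no filter, the filter of 1 CPM, only the compared phases, the covariate and without the 20 largest features. It was 68 with DESeq2, 1549 with limma-voom and 1 with 5 surrogate variables. Leaving out each library in turn gave from 0 to 890 calls, and features at an unadjusted p under 0.05 fell from 1688 to 1054 without anestrous library 16. Without library 15, the 890 calls became 2031 with DESeq2, 2224 with limma-voom, 434 with no filter on low counts, 1481 with 4 surrogate variables and 281 with the covariate. RLE scaling gave 991, the filter of 1 CPM 967 and only the compared phases 1022. Leaving out a further library gave from 29 to 1314. Features whose phase difference differed between tissues numbered 0 with all 42 libraries and 47 without library 15 (edgeR). Without library 15 the follicular minus anestrous difference was 3181320 in total counts and 578 in features detected. In the share of the 10 largest features it was -6.75 percentage points. All 3 then passed, but library 15 was an extreme of the anestrous group in each of them. Each of the 4 named features kept its direction in 23 alternatives and passed in 3 of them (DESeq2, limma-voom and without library 15). The alternatives refit the libraries whose values chose the 4 features, so their kept direction is not separate support. No alternative reversed a difference of a named feature or of a library measure. The sizes did move. With all libraries and surrogate variables, log2 fold changes went from 0.78 to 0.44 for ENSOARG00000008414 and from 0.59 to 0.31 for ENSOARG00000010515. They went from -2.15 to -1.52 for ENSOARG00000020201 and from -2.11 to -1.67 for ENSOARG00000014240. The balance of higher and lower calls did turn, from 407 and 483 to 155 and 126 with the covariate, and after leaving out some further libraries. The causes of these shifts were not tested. No paired analysis was possible because the phases share no library numbers and the labels name no ewe. With all libraries, the median standard error was 0.48 in the lowest and 0.19 in the highest of the 4 level classes.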
